A study of Rattus norvegicus with 6 samples.

Results

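RNA sequencing of right ventricular (RV) tissue was used to follow 8 genes of the cardiomyocyte membrane skeleton in pulmonary hypertension. They are Dmd (dystrophin), Utrn (utrophin), Dag1 (dystroglycan), the sarcoglycan genes Sgca, Sgcb and Sgcd, Vcl (vinculin) and Tln1 (talin 1). They were chosen by name, as genes of the dystrophin-sarcoglycan complex and of the costamere, out of 12958 named genes. Earlier results of these data were known when they were chosen. All 8 had an entry, and 7 reached the mean of 10 normalised counts that was required for a test. The maladaptive group, SuHx, consisted of 3 libraries from male Sprague-Dawley rats at 8 weeks. These rats had received SU5416 (Sugen), which blocks signalling by vascular endothelial growth factor, and were exposed to hypoxia and then returned to normoxia. The control group consisted of 3 libraries from male Sprague-Dawley rats at day 0, with no treatment named. No control of the later age is among these libraries, so in every difference below the effects of SU5416, hypoxia and pressure load cannot be told apart from those of age and growth. The SuHx libraries are called A, B and C, because their columns could not be tied to numbered rats, and the controls are called 1, 2 and 3. Nothing in the labels says that each library came from a separate rat, so the spread behind the p-values may be technical.

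Dystrophin links cytoskeletal actin of muscle fibres to dystroglycan, which spans the membrane and binds laminin outside the cell. The sarcoglycans form a subcomplex in the membrane that steadies this link, and utrophin, the autosomal relative of dystrophin, can bind the same partners. Talin and vinculin connect integrins to actin at the costameres, the rib-like sites that tie the Z-discs to the membrane and pass force sideways out of the cell. Loss of dystrophin or of some of the sarcoglycans can cause muscular dystrophy, cardiomyopathy or both.

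Normalised counts summed to between 12754296 and 18249330 in SuHx libraries and to between 11607609 and 12393415 in control libraries. Mitochondrial transcripts took 55.0% to 67.5% of these totals in SuHx and 52.0% to 56.9% in control. Controls 1 and 3 stood apart. The atrial peptide gene Nppa had 36639 normalised counts in control 1 and 57.3 and 43.1 in the other controls, and further atrial genes went with it. Fos, an immediate early gene, had 4412 normalised counts in control 3 and 607 and 101 in the other controls. Cardiomyocyte markers were abundant throughout, with sums over 11 genes of 534538 to 599919 normalised counts in SuHx RV and 714811 to 828322 in control. Only Myh6 among them passed the test, at a lower level in SuHx. Without Myh6 the sums overlapped, at 364215 to 458243 in SuHx and 338105 to 441730 in control. The median log2 fold change of all 11 markers was 0.045, with 7 positive and 4 negative. Single markers differed, as 4 (Myh6, Tnni3, Pln and Ckm) had every SuHx library below every control, and 2 (Mybpc3 and Ryr2) had every SuHx library above. Of all genes, 11.6% and 12.9% did so. At an unadjusted p under 0.05 from limma, 3 of the 11 were lower and 1 was higher, beside 7.59% and 9.61% of all genes. Of the markers of other cells, 0 of 9 endothelial, 0 of 10 fibroblast, 0 of 7 mural, 0 of 7 leukocyte and 0 of 6 atrial markers passed, with sums that overlapped between the groups in each of these lists. Over all genes tested 1.55% passed at a higher level and 0.671% at a lower level, so 0 in lists this short says little about cell content. The median log2 fold changes of these lists were -0.057, 0.037, 0.16, 0.29 and -1.72 in the same order. The content of long transcripts relative to ribosomal protein transcripts, a sign of RNA quality, was 0.17, 0.41 and 0.67 log2 units in SuHx A, B and C and -0.47, -0.36 and -0.42 in controls 1, 2 and 3, so that the groups did not overlap (exact permutation p = 0.1, two-sided, the smallest that 3 against 3 libraries allow). This score used 12 long-transcript and 41 ribosomal protein genes, leaving out those listed at 0 in a library, a choice made after the values were seen. With all 15 long-transcript and 43 ribosomal protein genes it was -0.32, 0.59 and 0.79 in SuHx and -0.79, -0.32 and 0.053 in control, and the groups overlapped (exact permutation p = 0.3, two-sided).

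Of the 7 genes tested, utrophin was higher in SuHx RV than in control RV, and the other 6 did not pass the test. The test was limma on log2(normalised count + 1), with p-values adjusted by Benjamini-Hochberg for the 10725 genes whose mean reached 10, and genes were called at an adjusted p under 0.05. Across all of these genes 1.55% were called higher and 0.671% were called lower, against 1 and 0 of the 7. Because the 8 genes were chosen with earlier results of these data known, their counts are a description. At an unadjusted p under 0.05, 2 of the 7 were higher (Utrn and Tln1) and 1 was lower (Sgca), where 9.61% and 7.59% of all genes were. The same 3 genes were those whose libraries did not overlap between the groups. Among all genes, 12.9% had every SuHx library above every control library and 11.6% had every SuHx library below. The median log2 fold change of the 7 was 0.16, against 0.0095 over all genes tested. Fold changes are on the log2(normalised count + 1) scale, on which changes of genes with low counts look smaller than they are.

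**Figure D1:**
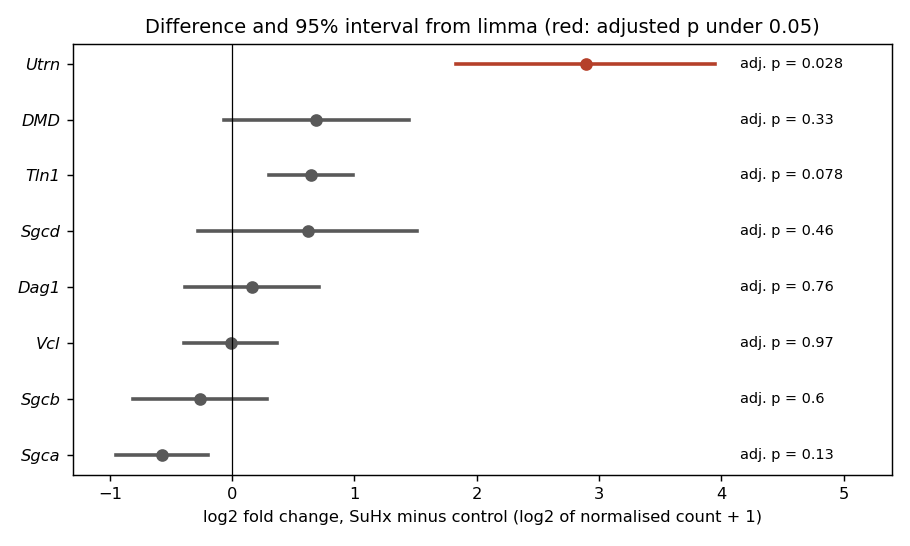
Log2 fold change of each tested gene, SuHx minus control, on the log2(normalised count + 1) scale, with the 95% confidence interval from limma (n = 3 libraries each). Utrn stands at 2.89 with an interval that stays above 0, and Tln1 and Sgca have intervals that exclude 0 but adjusted p-values of 0.078 and 0.13. DMD is a separate entry under the capital spelling of the dystrophin gene name, and its gene model is not given.

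Utrophin had 160, 289 and 223 normalised counts in the SuHx libraries A, B and C, against 28.1, 54.2 and 14.9 in controls 1, 2 and 3. The lowest SuHx library was well above the highest control. Utrn averaged 224 ± 64.5 normalised counts in SuHx RV and 32.4 ± 20.0 in control (SD, n = 3 each). The log2 fold change was 2.89 with a standard error of 0.45 and a 95% confidence interval of 1.83 to 3.95, or 7.42-fold (limma adjusted p = 0.028). This was the only call among the 8 genes, and it was sensitive to single libraries. Utrn had a log2 fold change of 2.45 to 3.35 when each library was left out in turn, but its adjusted p from limma was 0.080, 0.10 and 0.14 without SuHx A, B and C, 0.063 without control 1, and 0.060 with no mean-variance trend. Without controls 1 and 3 together, an alternative chosen after seeing the data, the log2 fold change was 1.99 and the adjusted p from limma was 0.077. The messengers of utrophin, dystrophin and talin 1 are long, and the score of long transcripts given above was higher in SuHx as well when genes listed at 0 were left out. Its part in the differences of Utrn, DMD and Tln1 was not tested.

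The start region of Utrn and the first of the annotated start regions of Dmd are shown, because Utrn carried the only call and both genes encode the actin-binding core of the complex. The windows come from RefSeq (GRCr8) and run from 250 bases before to 50 bases after the annotated start. Capitals mark matches to 5 motifs known from muscle and housekeeping promoters, which were searched on both strands, namely the N-box, the E-box, the GC box, MCAT and the CArG box, the site of serum response factor.
Utrn, chr1:9044438-9044737, minus strand: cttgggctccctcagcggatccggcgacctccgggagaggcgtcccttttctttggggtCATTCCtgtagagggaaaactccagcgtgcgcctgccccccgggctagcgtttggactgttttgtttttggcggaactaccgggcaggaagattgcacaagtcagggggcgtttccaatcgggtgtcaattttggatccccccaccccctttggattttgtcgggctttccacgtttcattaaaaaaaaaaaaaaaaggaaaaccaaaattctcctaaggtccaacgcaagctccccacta
Dmd, chrX:51205836-51206135, plus strand: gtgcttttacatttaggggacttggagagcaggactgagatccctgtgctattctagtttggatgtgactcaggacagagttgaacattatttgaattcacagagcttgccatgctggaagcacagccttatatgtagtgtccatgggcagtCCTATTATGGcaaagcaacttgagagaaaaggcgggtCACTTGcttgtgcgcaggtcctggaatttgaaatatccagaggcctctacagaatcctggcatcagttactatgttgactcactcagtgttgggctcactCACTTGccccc
The Utrn window held 1 match, to MCAT (CATTCC), 191 bases upstream of the start. MCAT was found in 14.2% of 33469 rat windows of this length. The N-box (TTCCGG), which is known from the utrophin promoter of other species, had no match in this window and had one in 15% of all windows. The Dmd window held a CArG box 98 bases upstream of the start, a motif found in 1.64% of all windows, and a pair of E-boxes, of which one lay after the start. E-boxes (CANNTG) were found in 72.1% of all windows. GC boxes, spelled GGGCGG, were found in 33.1%. Windows were found for 7 of the 8 genes. The Vcl window held 4 GC boxes and an MCAT, those of Sgca, Sgcd and Tln1 held E-boxes only, and that of Sgcb held none of the 5 motifs. These are matches of letters and not sites shown to be bound.

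The dystrophin gene name appeared in the table in a pair of spellings that differ only in case, the only such pair among the 12958. The entry Dmd had 14.7, 2.58 and 12.4 normalised counts in the SuHx libraries A, B and C, against 0, 7.29 and 0 in controls 1, 2 and 3. The groups overlapped, and the mean of 6.16 over the 6 libraries was under the minimum for a test. Fitted without that minimum, Dmd had a log2 fold change of 2.17 with a standard error of 1.01 and a 95% confidence interval of -0.19 to 4.52 (limma adjusted p = 0.35). Whether a listed 0 means absence or a failed estimate is open in such values, so for controls 1 and 3 Dmd can only be said to be listed at 0. The entry DMD had 1392, 1719 and 1547 normalised counts in the SuHx libraries A, B and C, against 1353, 1180 and 552 in controls 1, 2 and 3. Its groups did not overlap, by the narrow margin between SuHx A and control 1, and control 3 lay apart below the rest. DMD averaged 1552 ± 164 normalised counts in SuHx RV and 1028 ± 422 in control (SD, n = 3 each), with a log2 fold change of 0.69, a standard error of 0.32 and a 95% confidence interval of -0.07 to 1.45 (limma adjusted p = 0.33). Without control 3 the log2 fold change of DMD was 0.29. Which gene model each spelling stands for is not given in the sources used here. With both summed per library, the counts were 1406, 1721 and 1559 in SuHx, against 1353, 1188 and 552 in control, and the log2 fold change was 0.70 (limma adjusted p = 0.33). The capital spelling was added to the 8 genes after its values were seen.

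**Figure D2:**
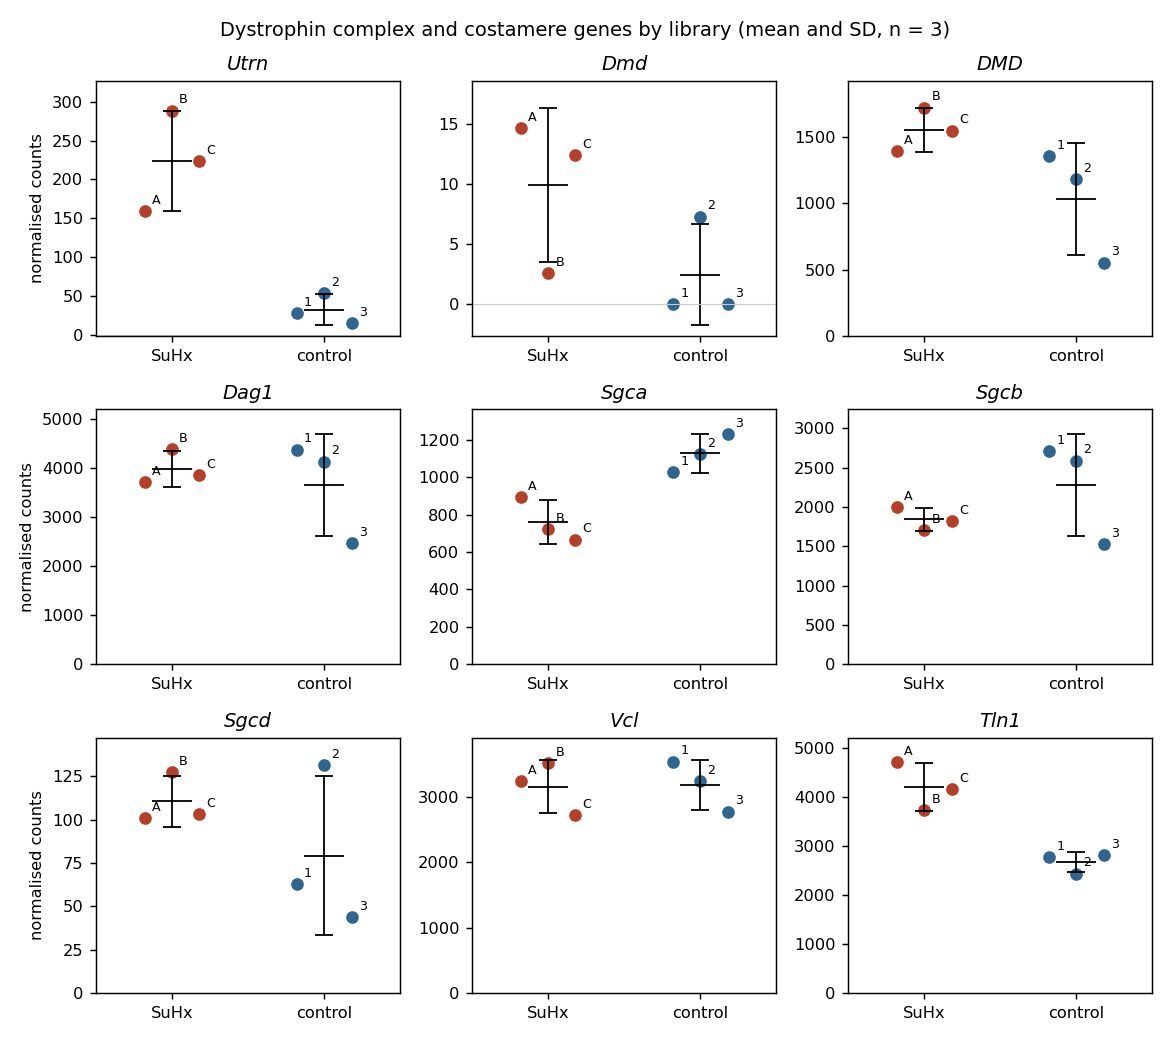
Normalised counts of the 8 genes, and of the capital spelling DMD, in each library, with the mean and SD of each group (n = 3 each; A to C are SuHx libraries and 1 to 3 are control libraries, and each panel has its own axis). The SuHx libraries lie above all controls for Utrn, DMD and Tln1 and below them for Sgca, and the groups overlap for the other genes.

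Dag1 encodes dystroglycan, the receptor that joins dystrophin to laminin. It had 3711, 4394 and 3853 normalised counts in the SuHx libraries A, B and C, against 4378, 4134 and 2470 in controls 1, 2 and 3. The SuHx values fell between those of control 3 and control 1, with the exception of SuHx B just above control 1. The log2 fold change was 0.16 with a standard error of 0.23 and a 95% confidence interval of -0.38 to 0.71 (limma adjusted p = 0.76). The sign rested on control 3, without which the log2 fold change was -0.098.

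Among the sarcoglycans, the 3 genes gave 3 different patterns, none of which passed the test. Sgca, which encodes alpha-sarcoglycan, a subunit largely restricted to striated muscle, had 894, 723 and 666 normalised counts in the SuHx libraries A, B and C, against 1026, 1124 and 1230 in controls 1, 2 and 3. Every SuHx library was below every control. Sgca averaged 761 ± 119 normalised counts in SuHx RV and 1127 ± 102 in control (SD, n = 3 each). Its log2 fold change was -0.57, with a standard error of 0.16, a 95% confidence interval of -0.95 to -0.20 and an adjusted p of 0.13 from limma. The direction of Sgca held under each of 17 alternatives, between -0.89 and -0.48, and none of them brought its adjusted p from limma under 0.05.

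Sgcb encodes beta-sarcoglycan, a core subunit shared by most tissues that carry the complex. It had 2003, 1705 and 1818 normalised counts in the SuHx libraries A, B and C, against 2713, 2590 and 1529 in controls 1, 2 and 3. The SuHx libraries lay close together and below controls 1 and 2, whereas control 3 was the lowest of all. The log2 fold change was -0.26 (standard error 0.23, 95% confidence interval -0.81 to 0.28, limma adjusted p = 0.60). It was -0.11 without control 1, -0.15 without control 2, and -0.53 without control 3, where the adjusted p from limma was 0.062.

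Sgcd encodes delta-sarcoglycan, whose loss causes cardiomyopathy in hamsters. It had 101, 128 and 103 normalised counts in the SuHx libraries A, B and C, against 62.7, 131 and 43.8 in controls 1, 2 and 3. The controls spread over a wider range than the SuHx libraries and enclosed them. The log2 fold change was 0.62 (standard error 0.38, 95% confidence interval -0.28 to 1.51, limma adjusted p = 0.46). The size rested on single controls, with 1.05 without control 2 (limma adjusted p = 0.12) and 0.27 without control 3 (limma adjusted p = 0.68), and Sgcd turned to -0.26 without controls 1 and 3, where control 2 alone was the control.

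Neither adaptor gene at the integrin end of the costamere passed the test. Vcl, encoding vinculin, which binds talin and actin under tension, had 3247, 3516 and 2719 normalised counts in the SuHx libraries A, B and C, against 3542, 3244 and 2778 in controls 1, 2 and 3. The values of each group ran over nearly the same range. The log2 fold change of Vcl was -0.013 (standard error 0.16, limma adjusted p = 0.97), and the 95% confidence interval of -0.39 to 0.36 leaves room for a modest change in either direction. Tln1, encoding talin 1, the widely expressed talin that activates integrins, had 4701, 3734 and 4154 normalised counts in the SuHx libraries A, B and C, against 2770, 2432 and 2817 in controls 1, 2 and 3. All SuHx libraries were above all controls, with little spread among the controls. Tln1 averaged 4196 ± 485 normalised counts in SuHx RV and 2673 ± 210 in control RV (SD, n = 3 each). The log2 fold change was 0.65, with a standard error of 0.15 and a 95% confidence interval of 0.30 to 0.99. With an adjusted p of 0.078 from limma it did not pass the test, although it did without control 3, at 0.69 (limma adjusted p = 0.049). After rescaling to equal library totals, where the median of all genes lay at -0.31, the log2 fold change of Tln1 was 0.33 (limma adjusted p = 0.44). Levels in bulk tissue do not tell fewer cells of a type from less RNA per cell, which holds for every gene here.

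Ratios between these genes within a library do not depend on how the library was scaled, and they are given as a description with no test. Those with DMD were added after the values were seen. The log2 ratio of Utrn over DMD was -3.12, -2.57 and -2.79 in SuHx A, B and C, against -5.59, -4.45 and -5.21 in controls 1, 2 and 3. The share of utrophin relative to the DMD entry was thus higher in every SuHx library. The difference was 2.25 log2 units between the means of -2.83 ± 0.28 in SuHx RV and -5.08 ± 0.58 in control RV (SD, n = 3 each). Dag1 over DMD was 1.41, 1.35 and 1.32 in SuHx, against 1.69, 1.81 and 2.16 in control. All SuHx libraries lay below the controls, and their spread was narrow. Sgcb over Sgca averaged 1.28 ± 0.15 in SuHx RV and 0.97 ± 0.58 in control RV, and Sgcd over Sgca averaged -2.78 ± 0.33 in SuHx RV and -3.98 ± 0.86 in control RV (SD, n = 3 each), with overlapping libraries in the first and a SuHx A just under control 2 in the second. Vcl over Tln1 was -0.53, -0.087 and -0.61 in SuHx, against 0.35, 0.42 and -0.021 in control. Every SuHx library was below every control, by a small margin between SuHx B and control 3. The ratios of Utrn and Dag1 over the entry Dmd could not be formed, because Dmd was listed at 0 in controls 1 and 3.

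**Figure D3:**
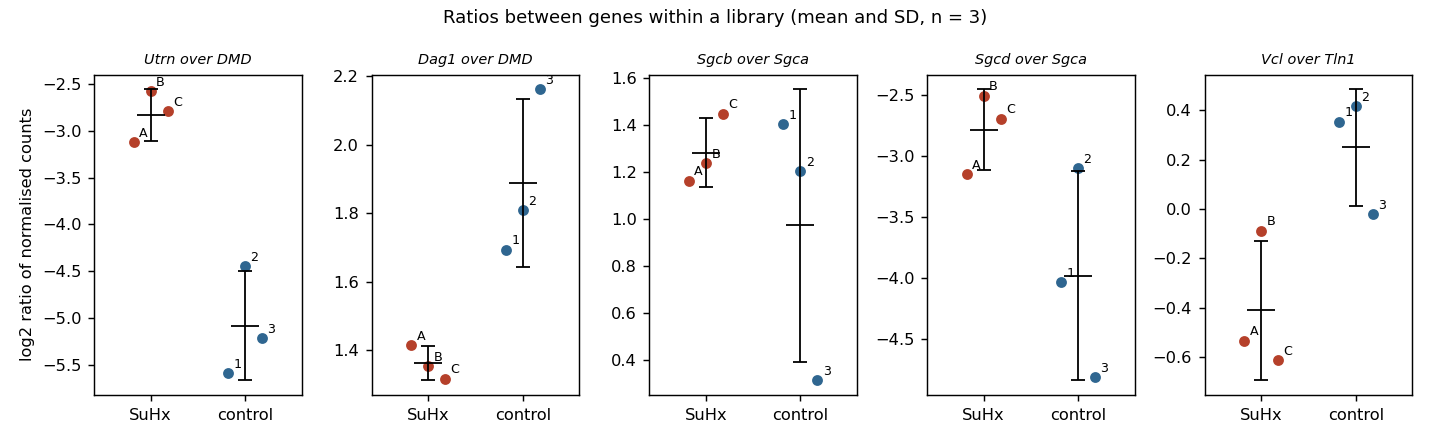
Log2 ratio of normalised counts of gene pairs in each library, with the mean and SD of each group (n = 3 each; each panel has its own axis). Utrn over DMD is higher in all SuHx libraries than in all controls, Dag1 over DMD and Vcl over Tln1 are lower, and the groups overlap for Sgcb over Sgca and Sgcd over Sgca.

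Other genes of the dystrophin-glycoprotein complex gave no call. Of 15 listed genes 12 had an entry and 11 were tested. By limma 0 of these rose and 0 fell, beside 1.55% and 0.671% of all genes. At an unadjusted p under 0.05, 1 of the 11 was higher and 1 was lower (Sgce), beside 9.61% and 7.59% of all genes. The median log2 fold change of the 11 was 0.034, against 0.0095 for all genes tested. Sgce, the epsilon-sarcoglycan gene and the closest relative of Sgca, had 176, 219 and 163 normalised counts in SuHx, against 265, 246 and 297 in control. Like Sgca it was lower in each SuHx library than in each control, at a log2 fold change of -0.54 (standard error 0.17, limma adjusted p = 0.17). Sspn, which encodes sarcospan, a small membrane partner of the sarcoglycans, had 964, 930 and 941 normalised counts in SuHx, against 1515, 1530 and 354 in control. Control 3 set its log2 fold change, which was 0.013 over all libraries (limma adjusted p = 0.99), and Sspn passed the test without control 3 (log2 fold change -0.69, limma adjusted p = 0.022). Dysf, which encodes the membrane repair protein dysferlin, had a log2 fold change of -0.029 (limma adjusted p = 0.94).

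Genes that take part in the glycosylation of dystroglycan, whose sugars bind laminin, likewise gave 0 calls in either direction by limma. Over all genes tested, 1.55% were called higher and 0.671% lower. Of 17 listed, 15 were tested. At an unadjusted p under 0.05 there were 2 higher (Pomgnt1 and Gmppb) and 1 lower (Ispd), beside 9.61% and 7.59% of all genes. The median log2 fold change was -0.052, against 0.0095 for all genes tested. Among the 3 of highest mean were B3galnt2 and Pomgnt1. B3galnt2, a glycosyltransferase, had 621, 754 and 582 normalised counts in SuHx, against 575, 732 and 570 in control. Pomgnt1, another glycosyltransferase, had 349, 352 and 311 in SuHx, against 266, 293 and 237 in control. The groups overlapped for B3galnt2 and were apart for Pomgnt1, whose adjusted p from limma was 0.29.

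Among the other costamere genes, 3 of the 25 tested (29 listed) rose and 0 fell. They were Synm, Sorbs2 and Flnc. Of all genes tested, 1.55% were called higher. At an unadjusted p under 0.05, 10 of the 25 were higher and 1 was lower, beside 9.61% and 7.59% of all genes. The groups did not overlap for 12 that were higher and 1 that was lower, beside 12.9% and 11.6% of all genes, and the median log2 fold change was 0.54, beside 0.0095. This list was drawn up with earlier results of these data known, and its counts are a description. Synm, which encodes synemin, an intermediate filament protein that binds desmin, vinculin and dystrophin, had 2309, 2308 and 1951 normalised counts in the SuHx libraries A, B and C, against 902, 945 and 689 in controls 1, 2 and 3. Every SuHx library had over 2 times the counts of the highest control (log2 fold change 1.38, standard error 0.17, limma adjusted p = 0.013). Sorbs2, an adaptor with SH3 domains found at Z-discs, had 12574, 10712 and 10871 normalised counts in SuHx, against 4325, 3726 and 2381 in control. The distance between the groups was several times the spread within them (log2 fold change 1.75, standard error 0.23, limma adjusted p = 0.016). Flnc, which encodes filamin C, the muscle filamin that binds actin and sarcoglycans, had 11205, 7991 and 9620 normalised counts in SuHx, against 3644, 3579 and 2108 in control, again with no overlap (log2 fold change 1.66, standard error 0.25, limma adjusted p = 0.026). All 3 calls were lost when any 1 SuHx library was left out, with adjusted p-values from limma of 0.060 to 0.13, and that of Flnc also without control 2 (0.052), without controls 1 and 3 together (0.062) and with no mean-variance trend (0.057). Without control 3 the costamere list had 8 calls, which added Itgb1, Sptan1, Zyx, Nrap and Svil. Calls over all genes rose in that setting as well, to 266 higher and 136 lower of 10707, from 166 and 72 of 10725. Tln2, encoding talin 2, the talin of mature striated muscle, had 972, 936 and 853 normalised counts in SuHx, against 635, 731 and 381 in control. Its groups were apart in the direction of Tln1, and it did not pass the test (log2 fold change 0.71, standard error 0.24, limma adjusted p = 0.20).

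**Figure D4:**
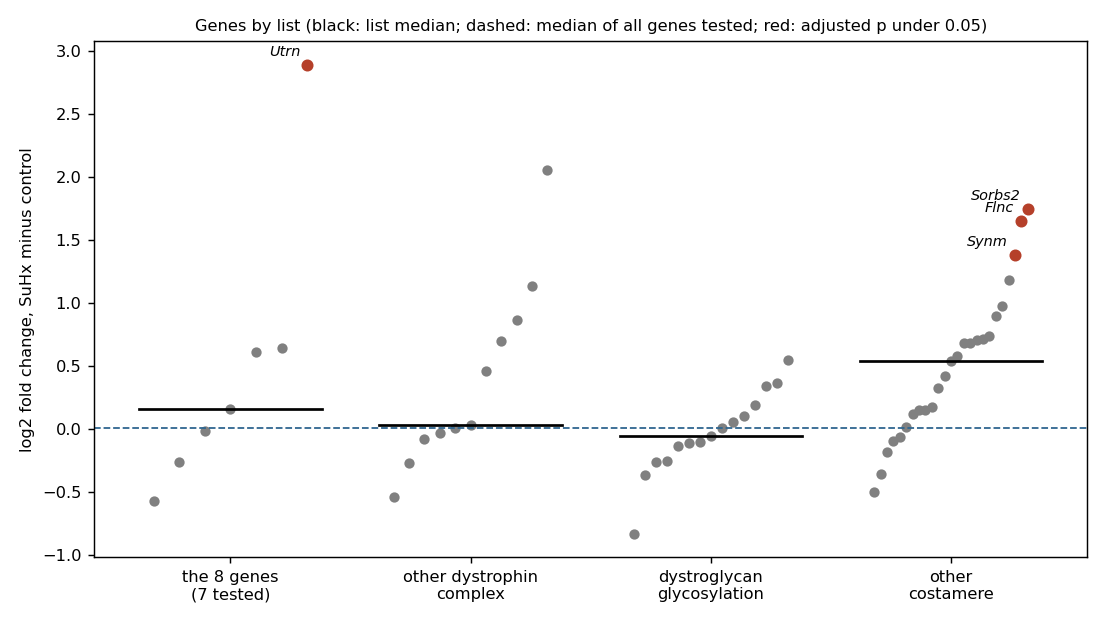
Log2 fold change, SuHx minus control, of each tested gene in the set of 8 and in the 3 related lists, in rising order within a list, with the list median (black) and the median of all genes tested (dashed). The 4 red points are the genes with an adjusted p under 0.05 from limma: Utrn, Synm, Flnc and Sorbs2.

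For each gene, the genes whose pattern over the 6 libraries was most like it were found by the root mean square distance between log2 values, each centred on its own mean, among 8123 other genes with a mean of at least 50. Nearest to Utrn were Abca5 (0.15 log2 units) and Plce1 (0.44), against a spread of Utrn itself of 1.56. Abca5, a transporter of the ABC family, had a log2 fold change of 2.87 (limma adjusted p = 0.032). Since Abca5 was picked for its likeness to Utrn in these same libraries, values near those of Utrn follow from that choice. Nearest to the DMD entry were Igf2r (0.041) and Ntn1 (0.081), and nearest to Dag1 were Chp1 (0.039) and Ccdc127 (0.041). Sgca was closest to Adamts7 (0.050) and Cox20 (0.051), Sgcb to Mtm1 (0.054) and Lix1l (0.086), and Sgcd to AABR06054427.1 and Tnks (0.14 each). For Vcl they were Slc10a7 (0.037) and Abce1 (0.043), and for Tln1 they were Dap (0.076) and Cln8 (0.079). Distances of different genes cannot be compared directly, because the spread of the gene itself was as low as 0.15 for Vcl and 0.28 for Dag1. Dmd had no close neighbour, with LOC100911186 at 0.70 and Atp2b2 at 0.87. None of the 7 tested genes was among the nearest pair of another of the 8. Dmd, with a mean under 50, could not be.

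**Figure D5:**
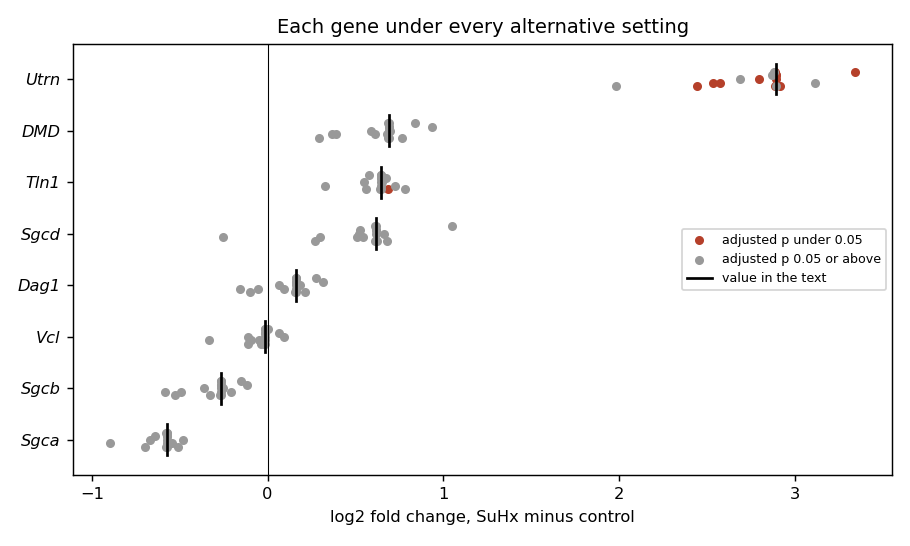
Log2 fold change of each tested gene under every alternative setting (points, red where the adjusted p from limma was under 0.05) and as given in the text (black line). Utrn stays between 1.99 and 3.35 and passed the threshold under 11 of 17 alternatives, Tln1 passed under 1, and Dag1, Vcl and Sgcd lie on both sides of 0.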

How the data were processed

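RV tissue of 3 SuHx and 3 control rat libraries was sequenced. The authors counted reads with Salmon (version 0.14.1) and deposited a normalised signal per gene, counts scaled with DESeq2 (version 1.24.0). Their notes name a mouse build whereas names of rat contigs occur, so no gene coordinates are given from the values. Of values under 12, 92.5% to 96.7% lay within 0.1 of a whole multiple of 1 step per library, which was too few to recover read counts for a count model. The depth in reads is not used here.

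Log2(value + 1) was compared for 10725 genes with a mean of at least 10, with limma 3.58.1 (R 4.3.3, mean-variance trend, two-sided), tested on simulated data, and per gene by an exact permutation test. The 8 genes and all lists were chosen with earlier results of these data known. Named were the 8 genes, called genes of each list (or the 3 of highest mean), Sgce, Tln2 and, per gene, its 2 nearest. Some genes that this rule takes are not reported here. Others were named after their values were seen. Figures used matplotlib 3.10.9. Alternatives covered the pseudocount, filter, scaling, moderation and each library left out. Entries with no gene name (at most 0.00514% of a total) were left out.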

Additional observations from a re-analysis of the deposited data

How the results depend on the processing

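With libraries rescaled to the same total, 90 genes were called higher and 191 lower (166 and 72 as deposited), and Dag1 turned to a log2 fold change of -0.16. With no mean-variance trend 83 were higher and 38 lower, and 0 of the 7 tested genes was called. Leaving out each library in turn gave 11 (without SuHx C) to 266 (without control 3) genes higher and 6 (without SuHx C) to 136 (without control 3) lower, and 0 to 2 of the 7 genes, 0 to 1 of the other dystrophin complex genes and 0 to 8 of the other costamere genes called. Over the same settings Dag1 ran from -0.098 to 0.31 and Vcl from -0.11 to 0.091 on the log2 scale. Without controls 1 and 3 together, chosen after seeing the data, 97 genes were higher and 8 lower, 0 of the 7 was called, and Dag1 turned to -0.056 and Sgcd to -0.26. Settings that leave out libraries also have fewer samples in the fit, and calls both rose and fell among them. What moved the counts was not tested for any setting. The direction of Utrn, Sgca, Sgcb, Tln1 and DMD was the same under every alternative run. In no alternative was a gene of the 7 called lower or a gene of dystroglycan glycosylation called. The median over all genes was -0.31 on the log2 scale after rescaling to the same total and -0.088 after rescaling to the same total of non-mitochondrial genes. No paired analysis was possible because the SuHx columns carry no replicate numbers. Such numbers would not have made pairs by themselves. Control RV was taken at day 0 and SuHx RV at 8 weeks, and the labels name no link between them. No interval for counting error was given, since read counts were not recovered.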

Other observations

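Control 3 was the lowest of the 3 controls for 5 of the 7 tested genes (Utrn, Dag1, Sgcb, Sgcd and Vcl) and the highest for the other 2 (Sgca and Tln1). It was the lowest control for 40.2% and the highest for 39.1% of all genes tested, against 29.8% and 30.0% for control 1 and 29.2% and 30.8% for control 2. Sspn had 354 normalised counts in control 3, against 1515 and 1530 in controls 1 and 2.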
